A study of Mus musculus with 14 samples.

Results

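The transcripts of 8 complement genes were followed among the 55487 genes counted in mouse bone marrow cells exposed to IL-1β or PBS. The genes were chosen by name, with earlier results of these data known. The share of them called is therefore a description beside the share of all genes. They are the components C3 and C4b, the proteases C1ra, C1s1, C2 and Cfb, the inhibitor Serping1 and the receptor C3ar1. A further 51 complement genes were listed for comparison.

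Complement is a cascade of blood proteins. The protease C1s, in a complex with the protease C1r, cleaves C4 and C2. The resulting enzyme cleaves C3, the protein on which all activation routes meet. Factor B, encoded by Cfb, carries an amplifying loop that also cleaves C3, the serpin encoded by Serping1 inactivates C1r and C1s, and C3ar1 encodes the receptor for the C3a fragment that cleavage releases. Most of these proteins circulate from the liver, and macrophages and stromal cells are known to make several of them locally, more so in inflammation.

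RNA was sequenced from 3 bone marrow populations. The first consisted of 4 libraries of cultured cells labelled MSC (mesenchymal stromal cells), grown for 21 days from the marrow of wild-type C57BL/6 mice and exposed for 72 hours to PBS (2 libraries, replicates 2 and 3) or to IL-1β at 5 ng/ml (2 libraries, replicates 1 and 2). The other populations were LSK cells (Lin-Sca1+c-kit+, enriched for stem cells) and LK cells (Lin-c-kit+, committed progenitors), with 3 PBS and 2 IL-1β libraries each. They were sorted from irradiated C57BL/6 recipients of Mx1Cre;Jak2VF/+ marrow, so both treatments carried the heterozygous Jak2V617F allele in their blood-forming cells. The Cre is driven by an interferon-inducible promoter that acts in many cell types. Per the paper, the donor mice had been given pI-pC (polyinosine-polycytosine) before transplant, the injection it used to induce Jak2V617F expression. From 4 weeks after transplant the recipients received PBS or 0.5 μg IL-1β intraperitoneally, 3 doses per week for 16 weeks. The reporting summary gives 6 to 8 weeks as the age of the mice used in the experiments, and the age at sampling is not given in the labels. The labels do not say whether libraries of a group came from separate animals or cultures, so p-values measure only the spread between these libraries.

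The MSC libraries held 5834909 (PBS 2), 13155033 (PBS 3), 30871055 (IL-1β 1) and 11681794 (IL-1β 2) counted read pairs. The LSK libraries held 12172400 to 16271408 with PBS and 8641124 and 4393233 with IL-1β. The LK libraries held 12804883 to 18544346 with PBS and 7652483 and 6367352 with IL-1β, so in both sorted populations every IL-1β library was shallower than every PBS library. Levels are given as CPM, counts per 1e+06 read pairs after TMM scaling within a population, and levels of different complement genes are compared only as RPKM, which is CPM divided by the gene's exon length in kilobases. Since each population was scaled separately, levels set side by side across populations were not tested.

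The MSC label was checked against marker genes. Markers of mesenchymal cells were present, with Col1a2 at 1067 and 628 CPM under PBS and 863 and 1004 CPM under IL-1β. Lepr was at 0 counts in both PBS cultures and under 1 CPM in both IL-1β cultures. Macrophage markers took up more of the read pairs. Lyz2, which encodes lysozyme, stood at 7124 and 4794 CPM under PBS, and all 16 macrophage genes listed had counts. Their summed level was 24221 and 20191 CPM under PBS and 40694 and 41831 CPM under IL-1β, against 3520 and 1710 CPM, then 4333 and 4829 CPM, for the 14 mesenchymal genes. The cultures were therefore not made of mesenchymal cells alone, and MSC is used here as the label only. Kit, which encodes the c-kit protein used in both gates, stood at 299 to 604 CPM in LSK and 292 to 364 CPM in LK libraries. The Sca1 part of the LSK gate was not checked.

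In the MSC cultures, C3, C1ra, C1s1 and Serping1 passed the test and all were higher with IL-1β, so 4 of the 8 genes were called, or 4 of the 7 that had enough counts to be tested. Of all 13239 genes tested in these cultures, 11.4% were called, 7.14% higher and 4.31% lower. The median log2 fold change of the 7 genes was 1.69, and that of all genes 0.00. A gene was called when edgeR's quasi-likelihood test gave a Benjamini-Hochberg adjusted p under 0.05 over all genes and the log2 fold change was above 0.5 in size.

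C3, the central component (ENSMUSG00000024164, chr17:57203970-57228136, minus strand, GRCm38), had 15.7 CPM in PBS 2 and 33.3 CPM in PBS 3. With IL-1β it had 283 CPM in library 1 and 301 CPM in library 2. Both IL-1β cultures lay far above both PBS cultures, although the PBS cultures themselves differed more from each other, in proportion, than the IL-1β cultures did. The means were 24.5 ± 12.5 CPM (SD, n = 2) and 292 ± 12.9 CPM (SD, n = 2), and C3 rose 11.6-fold (log2 fold change 3.53, SE 0.36, edgeR adjusted p = 0.00947). Without PBS replicate 3, the higher of the PBS cultures, the log2 fold change was 4.22.

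C4b, which supplies the C4 fragment of the classical C3-cleaving enzyme (chr17:34728380-34743882), had 5.50 CPM in PBS 2 and 0.752 CPM in PBS 3, from 33 and 10 counts. The IL-1β cultures had 13.3 and 10.5 CPM, from 407 and 119 counts. The groups did not overlap, but the PBS cultures stood far apart from each other. C4b was not called (log2 fold change 2.17, SE 0.81, edgeR adjusted p = 0.159), and its log2 fold change was 4.02 without PBS replicate 2 and 1.15 without PBS replicate 3. Its near-identical neighbour C4a had 0.50 to 1.31 CPM in the same cultures, and since pairs matching both copies were not counted, the split between them is uncertain.

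The proteases C1r and C1s form 1 complex, and their genes lie close together on chromosome 6. C1ra (ENSMUSG00000055172, chr6:124512405-124523443, plus strand) had 17.0 CPM in PBS 2 and 8.80 CPM in PBS 3. In the IL-1β cultures it had 39.7 and 40.1 CPM. C1ra was thus higher in both IL-1β cultures than in either PBS culture, and rose 3.23-fold (log2 fold change 1.69, SE 0.30, edgeR adjusted p = 0.0269).

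C1s1 (ENSMUSG00000038521, chr6:124530345-124542359, minus strand) had 24.0 and 20.7 CPM under PBS and 61.1 and 62.7 CPM under IL-1β. The replicates were close together in both groups and the groups were well apart. C1s1 rose 2.79-fold (log2 fold change 1.48, SE 0.12, edgeR adjusted p = 0.00297). The paralogs C1rb and C1s2 did not exceed 0.441 CPM in any MSC culture.

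C2 (chr17:34862604-34898265) encodes the protease that C1s activates. It had 2.33 and 0.977 CPM under PBS and 2.33 and 3.08 CPM under IL-1β. PBS 2 and IL-1β 1 had nearly the same level, so the groups overlapped, and C2 was not called (log2 fold change 0.79, SE 0.52, edgeR adjusted p = 0.363). Its log2 fold change was 1.42 without PBS replicate 2 and 0.16 without PBS replicate 3.

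Cfb, the protease of the alternative pathway (ENSMUSG00000090231, chr17:34856374-34862518, minus strand), had 2 and 0 counts under PBS and 19 and 12 counts under IL-1β. Both IL-1β cultures exceeded both PBS cultures, but these counts were too few to pass edgeR's filter, so Cfb was not tested in any population with this filter and all libraries. Summed over each group, the counts gave 0.105 and 0.728 CPM without TMM scaling, a ratio of 6.92 with an exact 95% interval of 1.76 to 59.6 that covers counting error only. The annotation limits how many read pairs either Cfb or C2 can receive. Gm20547, a gene model on the same strand that runs across both Cfb and C2, shares 2246 of the 2825 exon bases of Cfb and 1656 of the 3872 exon bases of C2. Read pairs in shared bases match more than 1 gene and are left out by the counting as its command line is written, so the deposited counts of Cfb rest mainly on 579 bases. All 3902 exon bases of Gm20547 lie within the other genes, and it had 0 counts in all 14 libraries. The levels of Cfb and C2 are therefore lower limits, and their place among the other genes is uncertain.

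**Figure D1:**
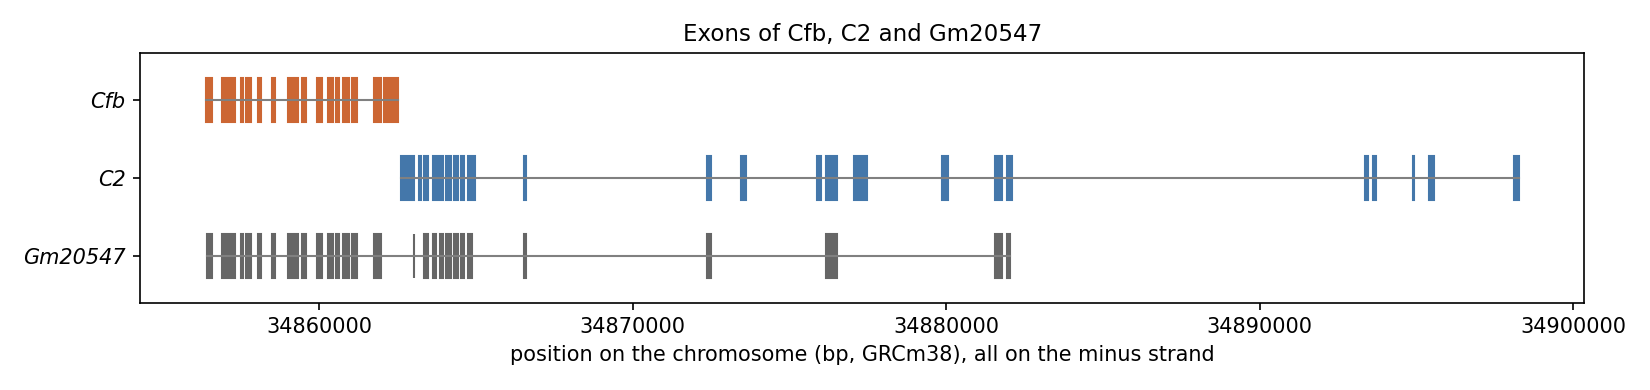
Exons (boxes) of Cfb, C2 and Gm20547 by position on chromosome 17 in base pairs, as the count tables list them. The exons of Gm20547 fall inside those of Cfb (2246 shared bases) and C2 (1656 shared bases), where read pairs could not be assigned.

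Serping1, the C1 inhibitor gene (ENSMUSG00000023224, chr2:84765387-84775444, minus strand), had 76.4 CPM in PBS 2 and 42.3 CPM in PBS 3. The IL-1β cultures had 388 and 356 CPM. The groups were far apart. Serping1 rose 6.34-fold (log2 fold change 2.66, SE 0.29, edgeR adjusted p = 0.00979), so the inhibitor and the proteases it binds were called in the same direction.

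C3ar1, the C3a receptor gene (ENSMUSG00000040552, chr6:122847138-122856161, minus strand), had 1022 and 1026 CPM under PBS and 1271 and 1168 CPM under IL-1β. The IL-1β cultures were slightly higher, with no overlap. C3ar1 was not called, with a log2 fold change of 0.25 (SE 0.11, 95% interval -0.02 to 0.52, edgeR adjusted p = 0.195). Its level was high in every MSC culture whatever the treatment.

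Per length, the order of the genes within PBS cultures was C3ar1 (mean 238 RPKM), Serping1 (25.5), C1s1 (7.15), C3 (4.76), C1ra (4.32), C4b (0.548), C2 (0.427) and Cfb (0.0589). The PBS cultures of C3 and C1ra overlapped, as did those of C4b and C2. With IL-1β, C3 (56.8 RPKM) stood above C1s1 (19.8) and C1ra (13.4), and below C3ar1 (283) and Serping1 (160.0). In the IL-1β cultures these 5 genes did not overlap with each other.

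Other features of the cultures moved along with these results. Of the 16 macrophage genes, 8 were called higher with IL-1β and 0 lower, Lyz2 among them (19845 and 20776 CPM under IL-1β). Adgre1, which encodes the macrophage surface protein F4/80, had 765 and 653 CPM under PBS and 1746 and 1804 CPM under IL-1β. The list did not rise as a whole: 13 of the 16 had a positive log2 fold change. Cd68 (log2 fold change -0.47), Tyrobp (-0.33) and Fcer1g (-0.11) were lower in both IL-1β cultures than in either PBS culture, and were not called. Of the 14 mesenchymal genes, Dcn was called higher and 0 were called lower. Of the 12 granule genes of neutrophil precursors, 4 had enough counts to be tested and Lcn2, Camp and Mmp8 were called higher, with Lcn2 at 0.666 and 0.827 CPM under PBS and 50.6 and 54.5 CPM under IL-1β. Most of the list was nearly absent from the cultures. Ngp and S100a9 had 0 counts in every culture, and Elane, Mpo, Prtn3 and Ctsg did not exceed 0.793 CPM in any. The libraries also differed in Xist, a transcript made from the inactive X chromosome, with 325 counts in PBS 2, 0 in PBS 3, and 2103 and 535 in the IL-1β cultures. The part of these differences in the complement results was not tested. In bulk RNA, more cells of a type and more RNA per cell cannot be told apart.

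The 4 calls depended on having both IL-1β cultures. Without IL-1β replicate 1 or without IL-1β replicate 2, 0 of the 8 genes were called (adjusted p 0.0605 to 0.273 for the 4 genes), with the remaining culture assumed to vary as the PBS cultures did. Without PBS replicate 2, 7 were called, C4b, C2 and Cfb in addition, where Cfb was set against a lone PBS library with 0 counts, and without PBS replicate 3, 5 were called, with C4b in addition. Over all genes the calls moved the same way, from 1515 with all cultures to 38 and 82 without IL-1β replicate 1 or 2, and to 3819 and 2794 without PBS replicate 2 or 3. All 4 genes kept a positive log2 fold change without any single culture.

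**Figure D2:**
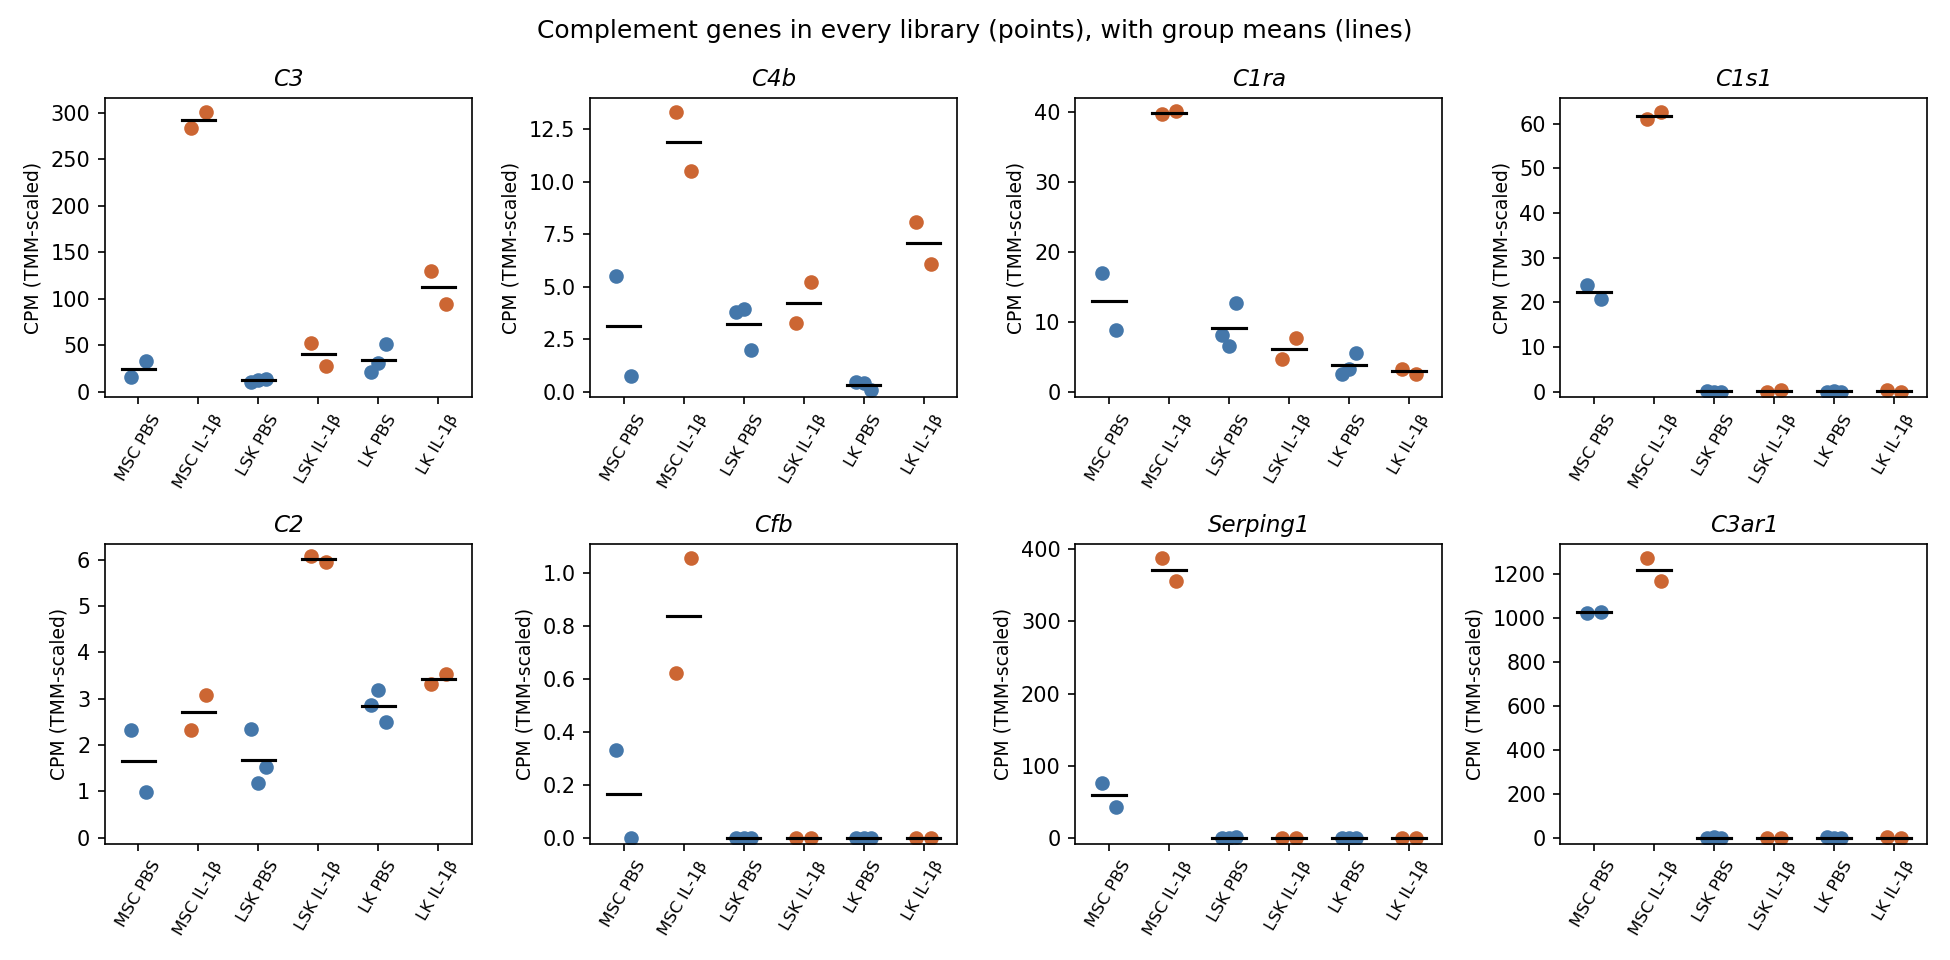
Level of each complement gene in every library, as TMM-scaled CPM on a linear axis from 0. Points are libraries (blue PBS, orange IL-1β) and black lines are group means. The IL-1β cultures of C3 lie at 283 and 301 CPM, above all other libraries, and C1s1, Serping1 and C3ar1 are near 0 in the sorted cells.

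In LSK cells, 0 of the 8 genes were called by edgeR, and 4 had enough counts to be tested. Of all 13132 genes tested in LSK cells, 0.632% were called, 0.32% higher and 0.312% lower. At an unadjusted p under 0.05 there were 2 of the 4, C3 and C2, and 2431 of all 13132 genes. DESeq2 called 1, C3, with 872 of all 12924 genes called, and limma-voom 0, with 21 of all 13132 genes called.

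C3 had 10.4, 12.6 and 13.3 CPM in the LSK PBS libraries. With IL-1β it had 52.0 CPM in library 1 and 28.0 CPM in library 2. Both IL-1β libraries lay above all 3 PBS libraries, and they differed widely from each other. C3 had a log2 fold change of 1.73 (SE 0.35, edgeR adjusted p = 0.066). DESeq2 gave an adjusted p of 0.000887, and adjusted p ranged from 0.000887 to 0.224 over all alternatives. Without LSK PBS replicate 2, a library with 3381 and 3581 genes over 2-fold away from PBS 1 and PBS 3 while those differed in 1027, edgeR called C3 (adjusted p = 0.0478), and the genes called over all genes went from 83 to 480.

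C2 had 2.34, 1.17 and 1.52 CPM in the LSK PBS libraries and 6.08 and 5.94 CPM in the IL-1β libraries. The IL-1β libraries were close to each other and lay above every PBS library. It was not called (log2 fold change 1.84, SE 0.72, edgeR adjusted p = 0.227).

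C1ra had 8.11, 6.57 and 12.6 CPM in LSK PBS libraries and 4.62 and 7.68 CPM with IL-1β, so the groups overlapped (log2 fold change -0.58, SE 0.53, edgeR adjusted p = 0.58). C4b overlapped too, with 3.80, 3.91 and 1.99 CPM under PBS and 3.28 and 5.20 CPM under IL-1β (log2 fold change 0.38, SE 0.72, edgeR adjusted p = 0.809). The partner protease gene C1s1 had 0 or 1 counts in each LSK library, so C1ra was counted in these cells almost without C1s1. Cfb had 0 counts in all 5 LSK libraries, Serping1 had 1, 0 and 7 counts under PBS and 0 in both IL-1β libraries, and C3ar1 had 3 to 22 counts.

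In LK cells, C3 and C4b were called, both higher with IL-1β, which makes 2 of the 8 genes and 2 of the 5 tested. Of all 12835 genes tested in LK cells, 9.34% were called, 6.77% higher and 2.57% lower. The median log2 fold change of the 5 genes was 0.26 and that of all genes was -0.03.

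C3 had 20.6, 30.4 and 50.8 CPM in LK PBS libraries 1, 2 and 3. With IL-1β it had 130.1 and 94.7 CPM. All PBS libraries were below both IL-1β libraries, with PBS 3 the nearest. C3 rose 3.31-fold (log2 fold change 1.73, SE 0.38, edgeR adjusted p = 0.045), close to the threshold. With no filter on low counts it was not called (adjusted p = 0.213).

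C4b had 0.476, 0.411 and 0.0715 CPM in the LK PBS libraries, from 6, 8 and 1 counts. The IL-1β libraries had 8.07 and 6.09 CPM, from 61 and 38 counts, although they were sequenced less deeply. The groups were far apart. C4b rose 21.3-fold (log2 fold change 4.42, SE 0.61, edgeR adjusted p = 0.00514), and the summed counts gave a ratio of 21.4 with an exact 95% interval of 12.3 to 39.6 that covers counting error only. C4a had 0.786 to 2.12 CPM in the LK libraries.

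C1ra (2.46, 3.23 and 5.50 CPM under PBS, 3.18 and 2.56 CPM under IL-1β) overlapped between treatments in LK cells and was not called (log2 fold change -0.37, SE 0.46, edgeR adjusted p = 0.66). C2 had 2.86, 3.18 and 2.50 CPM under PBS and 3.31 and 3.53 CPM under IL-1β, and was not called (log2 fold change 0.26, SE 0.38, edgeR adjusted p = 0.719). C3ar1 was at 0.321 to 2.30 CPM in the LK libraries, against 1022 to 1271 CPM in the MSC cultures. Cfb was at 0 counts in all 5 LK libraries, C1s1 and Serping1 did not exceed 2 counts in any, and none of the 3 was tested there.

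Granule genes of neutrophil precursors moved with the LK result. Of 12 listed, 8 were called higher and 0 lower, and their summed level was 4415, 5562 and 9566 CPM in PBS libraries 1, 2 and 3 and 21362 and 18241 CPM in the IL-1β libraries, with Mpo (myeloperoxidase) the largest share of read pairs in each. Of 8 erythroid genes, 3 were called lower. In LSK cells 4 of the 12 granule genes were called higher, and their sum was 2205 to 3181 CPM under PBS and 10036 and 11750 CPM under IL-1β. The part of these differences in the C3 and C4b results was not tested. Without LK IL-1β replicate 1, 0 of the 8 genes were called, and without LK PBS replicate 2 or LK IL-1β replicate 2, only C4b was. C3 then had adjusted p of 0.272, 0.133 and 0.112, and C4b had 0.11 without IL-1β replicate 1. Over all genes the calls went from 1199 to 66 without IL-1β replicate 1, to 603 without PBS replicate 2 and to 331 without IL-1β replicate 2.

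**Figure D3:**
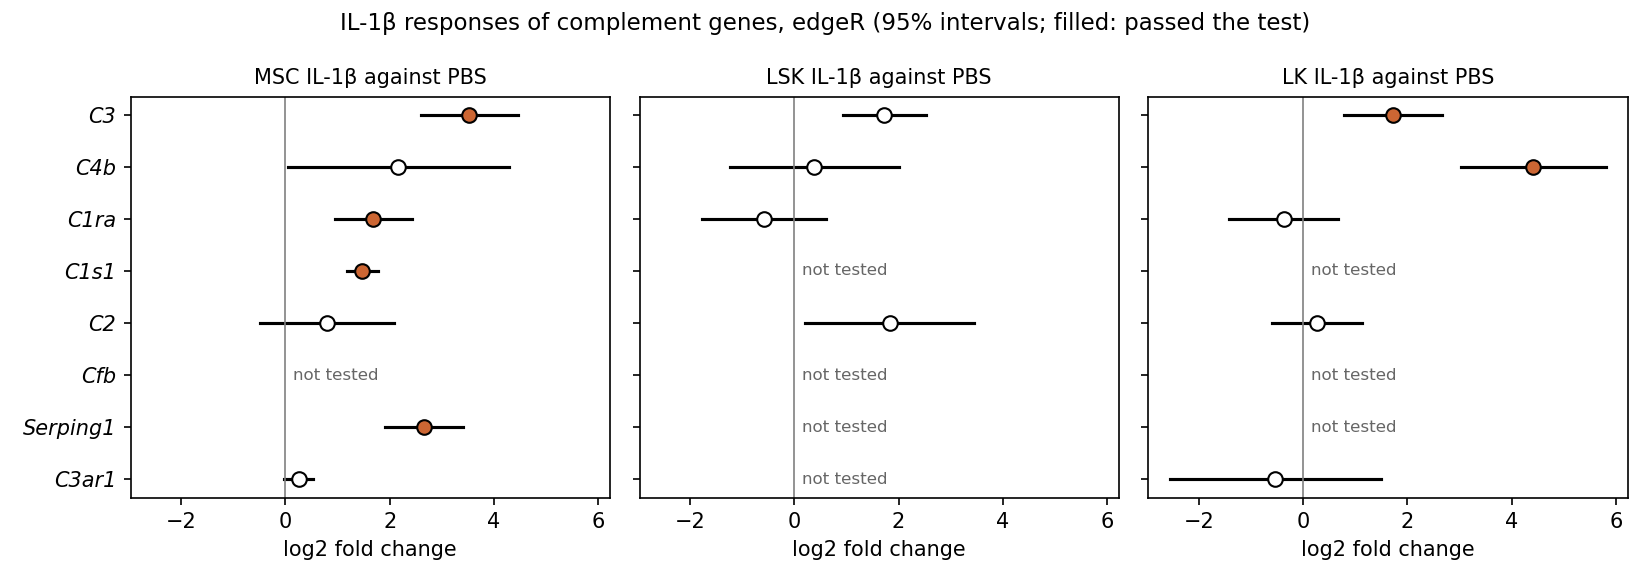
Log2 fold change of IL-1β against PBS for each complement gene (horizontal axis) in the 3 populations, from edgeR, with 95% intervals from the fitted standard error. Filled points passed the test. C3 is positive in all populations, with values of 3.53, 1.73 and 1.73, and C4b reaches 4.42 in LK cells.

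Whether the responses differed between populations was tested as an interaction in a joint fit of all 14 libraries. That fit gives each gene the same spread in every population, although the populations differed in spread. The biological coefficient of variation, edgeR's measure of spread between libraries, was 0.149 in MSC, 0.377 in LSK and 0.183 in LK fits. It was 0.27 in the joint fit, which limits the p-values below. MSC were wild-type cells treated in culture for 72 hours, and the sorted cells carried Jak2V617F and were treated in mice for 16 weeks, so population, genotype, mode and length of treatment cannot be told apart. Only genes tested in both populations on their own were read. Against LSK cells, C1ra responded more strongly in MSC cultures, with a difference in log2 fold change of 2.29 (SE 0.59, edgeR adjusted p = 0.031), and was the 1 gene called of 4 read. Of all 15393 genes in the joint fit, 9.27% were called in this comparison, 5.37% higher and 3.9% lower. The C1ra call was lost without MSC PBS replicate 3 (adjusted p = 0.143), without MSC IL-1β replicate 1 or 2 (0.131 and 0.0938) and without LSK IL-1β replicate 1 or 2 (0.077 and 0.0528). C3 had a difference of 1.84 (SE 0.55, edgeR adjusted p = 0.053), just short of the threshold. It was called without MSC PBS replicate 3 (adjusted p = 0.0494), without LSK IL-1β replicate 1 (0.0225), by DESeq2 (0.013) and by edgeR with no filter on low counts (9.89e-07), and adjusted p reached 0.191 over the alternatives. The difference was 2.55 and 2.45 without these libraries.

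Against LK cells, the responses of C3 and C1ra in MSC cultures were larger by 1.93 (SE 0.54, edgeR adjusted p = 0.0976) and 2.13 (SE 0.61, edgeR adjusted p = 0.106) on the log2 scale, and neither was called. C4b went the other way, with a difference of -2.28 (SE 1.05, 95% interval -4.54 to -0.02, edgeR adjusted p = 0.391), and -0.33 without MSC PBS replicate 2 and -3.15 without MSC PBS replicate 3. The C3 difference was 2.64 without MSC PBS replicate 3. Here 0 of 5 genes read were called by edgeR, and of all genes 2.04% were called, 1.24% higher and 0.799% lower. An unadjusted p under 0.05 was found for 3 of the 5 and for 1943 of all 15393 genes. DESeq2 called 1, with 659 of all 13027 genes called, and limma-voom 0, with 286 of all 15393 genes called. Between LSK and LK cells, 0 of 4 genes were called by edgeR, with 0.188% of all genes called, 0.0585% higher and 0.13% lower. An unadjusted p under 0.05 was found for 2 of the 4 and for 2507 of all 15393 genes. DESeq2 called 1, with 671 of all 12052 genes called, and limma-voom 0, with 1 of all 15393 genes called. C4b had the widest gap, with a response lower in LSK than in LK cells by 3.97 on the log2 scale (difference -3.97, SE 1.04, edgeR adjusted p = 0.104). DESeq2 gave -4.05 with an adjusted p of 0.00787 for the same contrast, and adjusted p ranged from 0.000407 to 0.494 over the alternatives, 0.0448 without LSK PBS replicate 2 among them. For C3 the difference was 0.09 (SE 0.51, 95% interval -1.01 to 1.20), so a difference of up to about 2-fold in either direction lies within the error.

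The other complement genes place these results within the cascade. Of the 51 listed, 9 had 0 counts in all 14 libraries, and 25 were tested in MSC cultures, where 5 were called higher and 2 lower. Of all genes tested in these cultures, 7.14% were called higher and 4.31% lower. The median log2 fold change of the 25 was 0.48, and that of all genes 0.004. C1qa, C1qb and C1qc encode the subunits of C1q, the recognition part that carries C1r and C1s. C1qa had 1207 and 1259 CPM under PBS and 1942 and 1980 CPM under IL-1β and was called (log2 fold change 0.67, SE 0.11, edgeR adjusted p = 0.0195). C1qb and C1qc reached 3486 and 2094 CPM and were not called (log2 fold changes 0.39 and 0.30).

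Regulators were among the other genes called in the MSC cultures. Cfp, which encodes properdin, the stabiliser of the alternative C3-cleaving enzyme, had 162 and 94.1 CPM under PBS and 562 and 629 CPM under IL-1β (log2 fold change 2.23, SE 0.27, edgeR adjusted p = 0.0116). Cd55, which encodes a membrane protein that takes apart C3-cleaving enzymes, had 0.333 and 0.752 CPM under PBS, from 2 and 10 counts, and 15.3 and 17.9 CPM under IL-1β. It rose (log2 fold change 4.75, SE 0.33, edgeR adjusted p = 0.00185), and the summed counts gave a ratio of 24.9 with an exact 95% interval of 14.2 to 48.5 that covers counting error only. Its response exceeded that of LSK and of LK cells in the joint fit by 5.05 and 5.04 on the log2 scale (edgeR adjusted p = 6.39e-05 and 0.000164).

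Clu, which encodes clusterin, an inhibitor of the terminal complex, had 2.66 and 0.601 CPM, then 9.30 and 12.2 CPM (log2 fold change 2.95, SE 0.60, edgeR adjusted p = 0.0374). Itgax, an integrin subunit of complement receptor 4, was called lower, with 155 and 330 CPM under PBS and 56.2 and 51.1 CPM under IL-1β (log2 fold change -2.18, SE 0.38, edgeR adjusted p = 0.0332). C1qbp, which encodes a C1q-binding protein found mainly in mitochondria, was called lower (log2 fold change -0.60). Among receptors at 10 CPM or more, C5ar1 (318 to 374 CPM), Cd93 (203 to 330 CPM), Itgb2 (674 to 684 CPM) and Itgam (226 to 405 CPM) were not called in MSC cultures, and Itgam shares most of its exon bases with another gene model. Masp1, Cr1l and Cd59a, also at 10 CPM or more, were not called in any population.

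In LK cells, 21 of the 51 were tested, 4 were called higher and 0 lower, beside 6.77% higher and 2.57% lower among all genes tested. Clu had 1.03, 1.23 and 2.22 CPM under PBS and 31.5 and 16.5 CPM under IL-1β (log2 fold change 4.01, SE 0.40, edgeR adjusted p = 0.00198). Fcnb, a ficolin gene of the lectin pathway, had 0.238, 1.08 and 1.22 CPM, then 14.03 and 4.01 CPM (log2 fold change 3.38, SE 0.70, edgeR adjusted p = 0.0247), with a ratio of summed counts of 10.3 (exact 95% interval 7.23 to 15.1, counting error only). C1rl and Itgb2 were the others (log2 fold changes 1.76 and 0.91). In LSK cells, 19 were tested and 0 were called by edgeR, beside 0.632% of all genes tested. Of the 19, 3 had an unadjusted p under 0.05, as had 2431 of all 13132 genes.

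Among the genes whose levels ran most like C3 over the 14 libraries were, by Pearson correlation of log2 CPM among 15393 genes, G3bp2 (r = 0.904), Saa3 (0.888), Pstpip2 (0.884) and Gm36161 (0.88). Libraries share a population and a treatment, so this is a description with no test. Saa3, an acute-phase gene, had 2.33 and 1.35 CPM in the PBS and 1600 and 1952 CPM in the IL-1β MSC cultures. Those most like C3ar1 were Mrc2, Cd5l, Pdpn, Creg2 and Cacna2d1, with r from 0.994 to 0.996 and no more than 1.43 CPM in any library of sorted cells.

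Promoters, from 250 bases before to 50 after the start of transcription, were read from RefSeq on GRCm38.p6 for 4 of the 8 genes, C3, C1ra, C1s1 and C3ar1. These are the genes matched to a promoter there, and they are shown to set 3 genes that rose in MSC cultures beside C3ar1, which was not called. Letter patterns like the sites of factors known in IL-1 and acute-phase responses were searched on both strands: GGGNNNTTC (NF-kappaB-like), AAANNGAAA (ISRE-like), TTCNNNGAA (GAS-like) and TTGCNNAA (C/EBP-like). They were held by 4587 (14%), 3466 (10.6%), 2726 (8.3%) and 3547 (10.8%) of the 32851 promoters, and 11973 (36.4%) held at least 1 of them. The C/EBP-like pattern was found in C3, C1ra and C1s1, the GAS-like pattern in C1ra, and the NF-kappaB-like and ISRE-like patterns in C3ar1 only. No matches overlapped. A match is a run of letters, not a bound site. Capitals mark the matches in the sequences, each written 5′ to 3′ on the strand of its gene (C3 chr17:57228087-57228386, minus; C1ra chr6:124512371-124512670, plus; C1s1 chr6:124542310-124542609, minus; C3ar1 chr6:122856108-122856407, minus).
C3: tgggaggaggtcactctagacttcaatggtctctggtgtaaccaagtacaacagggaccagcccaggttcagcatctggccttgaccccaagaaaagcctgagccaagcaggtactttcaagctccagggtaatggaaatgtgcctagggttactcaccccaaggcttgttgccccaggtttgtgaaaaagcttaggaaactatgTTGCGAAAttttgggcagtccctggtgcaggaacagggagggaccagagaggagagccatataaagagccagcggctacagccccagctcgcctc
C1ra: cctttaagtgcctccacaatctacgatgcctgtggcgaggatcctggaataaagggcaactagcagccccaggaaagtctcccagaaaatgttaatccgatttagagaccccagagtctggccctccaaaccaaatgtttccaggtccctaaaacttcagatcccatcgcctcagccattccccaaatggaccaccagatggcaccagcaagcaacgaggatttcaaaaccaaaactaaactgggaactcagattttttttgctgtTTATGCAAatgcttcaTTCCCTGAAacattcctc
C1s1: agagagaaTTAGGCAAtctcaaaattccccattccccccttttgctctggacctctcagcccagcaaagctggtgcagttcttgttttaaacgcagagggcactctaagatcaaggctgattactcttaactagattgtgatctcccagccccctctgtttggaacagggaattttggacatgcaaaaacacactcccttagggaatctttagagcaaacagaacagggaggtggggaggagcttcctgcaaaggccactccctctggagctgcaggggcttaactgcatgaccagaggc
C3ar1: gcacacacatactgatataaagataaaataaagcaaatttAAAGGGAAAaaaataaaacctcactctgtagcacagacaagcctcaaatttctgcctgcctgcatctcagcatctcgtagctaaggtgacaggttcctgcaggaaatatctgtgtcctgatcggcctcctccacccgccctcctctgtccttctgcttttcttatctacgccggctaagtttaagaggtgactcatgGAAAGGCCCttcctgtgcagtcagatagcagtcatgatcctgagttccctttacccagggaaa

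In C3 the match TTGCGAAA lay 45 bases before the start of transcription, whereas that in C1s1, TTAGGCAA on the opposite strand, lay 242 bases before it. In C1ra both matches lay within the transcribed bases after the start. A second RefSeq start of C1s1, whose window overlaps the printed one, held none of the patterns.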

How the data were processed

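The deposited tables hold read pair counts per gene for 14 libraries, made by the authors, per the file headers and labels, with fastp 0.20.0, HISAT2 2.0.1 on GRCm38, SAMtools 1.10 and featureCounts 2.0.2 (stranded, pairs counted, pairs matching several genes dropped). Another IL-1β MSC library named in a file header is not analysed here. The members and lists were chosen with earlier results of these data known.

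Each population was fitted separately with edgeR 4.0.16 (R 4.3.3): filterByExpr, TMM scaling, estimateDisp with robust = TRUE and the quasi-likelihood F test, Benjamini-Hochberg adjusted over all genes tested. Calls needed an adjusted p under 0.05 together with an absolute log2 fold change over 0.5. Responses were compared between populations as interactions in a joint fit of 6 groups, reading only genes tested in both separate fits, a rule set after the counts were seen. The SE is the log2 fold change divided by the root of F, and 95% intervals use the degrees of freedom implied by p. Counts of 3 or fewer were treated as the floor. Intervals on counts cover counting error only, since copies made by PCR cannot be told apart here. Other complement genes were named if they had at least 10 CPM in a group mean or were called, and some results are not reported here.

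Alternatives were DESeq2 1.42.0, limma-voom (limma 3.58.1), other scaling factors and filters, a replicate block and each library left out. The code was checked on simulated data. Figures were drawn with matplotlib 3.10.9.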

Additional observations from a re-analysis of the deposited data

Results flagged for a closer look

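The response of C1ra to IL-1β differed between MSC cultures and LSK cells by 2.29 on the log2 scale (SE 0.59, edgeR adjusted p = 0.031), and it is listed here because it is a difference between populations that passed the test. The call was lost without MSC PBS replicate 3 and without any single IL-1β library of either population. With a library left out, the difference ranged from 1.90 to 2.81. In the separate fits the log2 fold change was 1.69 in MSC cultures and -0.58 in LSK cells. The MSC cultures were wild-type cells treated in a dish for 72 hours and the LSK cells carried Jak2V617F and were treated in mice for 16 weeks, and macrophage markers summed to 20191 to 41831 CPM in the cultures and to 708 to 1194 CPM in LSK libraries. Which of these goes with the difference was not tested.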

How the results depend on the processing

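Of 414 log2 fold changes of the 8 genes recomputed under alternatives, 400 kept their sign, and 363 kept both sign and side of the threshold. In MSC cultures 4 to 5 genes were called with all libraries, and 0 to 7 with a library left out, where the lone library of a group was assumed to vary like the others. DESeq2 and limma-voom added C4b (adjusted p 0.0353 and 0.0358). In LSK cells DESeq2 and the fit with no filter on low counts each called 1 gene, C3, and leaving out libraries gave 0 to 1. In LK cells the fit with no filter called 1, C4b, and leaving out libraries gave 0 to 2.

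For LSK minus LK, DESeq2 and no filter each called 1, C4b, and leaving out libraries gave 0 to 1. For MSC minus LSK, DESeq2 and no filter each called 2, C1ra and C3, and leaving out libraries gave 0 to 1. For MSC minus LK, DESeq2 called 1 (C3), no filter 2 (C1ra and C3), and leaving out libraries gave 0.

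Signs turned only for values that were not called. C1ra in LK cells (-0.37 with all libraries) ranged from -0.587 to 0.0130 with a library left out, and C3ar1 in LK cells (-0.53 with all libraries) from -1.93 to 0.23, with 0.11 without LK IL-1β replicate 2. The LSK minus LK difference of C3 was -0.0409 with no filter, -0.0281 with only the 10 sorted libraries, and -0.59 to 0.46 with a library left out. That of C1ra ranged from -0.53 to 0.14. The cause was not tested.

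Replicate numbers were not treated as pairs, because deviations of same-numbered libraries from their group means correlated unevenly. Between LSK and LK cells they correlated at 0.19, 0.115 and 0.446 with PBS. With IL-1β the correlation was 0.0838, a single value, since the 2 libraries of a group mirror each other around their mean. Across treatments the correlations ranged from -0.091 to 0.116. With a replicate block, 1 gene was called in LSK cells (C3, log2 fold change 1.74, adjusted p = 0.012) and 2 in LK cells, and C1ra in LK cells had a log2 fold change of 0.0178 (adjusted p = 0.985). With LSK and LK libraries paired by number as the block, 0 were called and the C3 difference was -0.16. The block called 702 genes in LSK cells against 83, and 2331 in LK cells against 1199. For comparisons with MSC cultures only: No paired analysis was possible because the MSC groups share only replicate number 2.

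With a library left out, the genes called over all genes ranged from 38 to 3819 in MSC cultures (1515 with all libraries), 3 to 480 in LSK cells (83) and 66 to 2409 in LK cells (1199). They ranged from 2 to 1181 for LSK minus LK (29), 259 to 2977 for MSC minus LSK (1427) and 87 to 381 for MSC minus LK (314). With all libraries, no filter called 2354 in MSC cultures against 1515, and 1844 in LK cells. In LSK cells DESeq2 called 872, limma-voom 21 and no filter 869. For LSK minus LK, 29 became 671 with DESeq2, 1 with limma-voom, 728 with no filter and 4 with only the sorted libraries. For MSC minus LSK, 1427 became 2318 with DESeq2 and 2200 with no filter, and for MSC minus LK 314 became 659 and 666. Upper-quartile scaling moved the share of calls that were higher from 62.4% to 49.6% in MSC cultures. It moved this share from 57.9% to 44.5% for MSC minus LSK and from 60.8% to 45.5% for MSC minus LK, and DESeq2 size factors gave 49.1% in the latter.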
